A study of Mus musculus with 2 samples.

Results

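Pf4 and Ppbp are the 2 genes, of 31053 in the files, described here, across the cell types and macrophage subsets of mouse tumours. They were selected on their UMI counts in macrophages of these 2 libraries, which were high, although both encode chemokines best known as products of platelets. Their levels in macrophages are therefore what chose them and are given as a description. The cells came from subcutaneous syngeneic fibrosarcomas, connective tissue tumours grown from implanted cells of the same strain, in wild-type C57BL/6 mice, and were read by droplet single-cell RNA sequencing, in which unique molecular identifiers (UMIs) stand for single RNA molecules. The design compared tumours given an injection of autologous erythrocytes, suspended in buffered saline, and tumours given saline alone, each as 1 library. The labels contradict each other: the library titled Blood carries the saline treatment and the library titled Control carries the erythrocyte treatment. Libraries are therefore named by title, and the direction of a difference below cannot be assigned to either injection. No test was possible with 1 library a side, and every interval is an exact 95% interval that covers counting error only.

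Pf4 encodes platelet factor 4 (CXCL4) and Ppbp encodes pro-platelet basic protein, whose trimmed form is CXCL7. Megakaryocytes make both and load them into the alpha granules of platelets, which release them on activation. PF4 binds heparin and other glycosaminoglycans with high affinity and is a weak attractant of neutrophils, whereas trimmed PPBP attracts neutrophils through the receptor CXCR2. In mice Pf4 RNA is also a known transcript of several tissue macrophages.

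The genes lie next to each other within a cluster of CXC chemokine genes on chromosome 5 of the GRCm38 build, both on the plus strand and each with 3 exons. Ppbp (ENSMUSG00000029372) spans chr5:90768518-90770063 and Pf4 (ENSMUSG00000029373) spans chr5:90772435-90773383, with 2371 bases and 0 annotated genes between them. No other annotated gene overlaps either of them. The 250 bases before each start site are shown because the pair is known from megakaryocytes and was found here in macrophages: GGAA is the core bound by ETS factors, a family that holds Spi1 of macrophages and Fli1 of megakaryocytes, GATA is the core bound by Gata1 of megakaryocytes, and TATAAA is the TATA box. Capitals mark these letters on either strand, so that TTCC is GGAA and TATC is GATA read on the other strand. The sequences are those of RefSeq on GRCm38.p6, at chr5:90772185-90772434 for Pf4 and chr5:90768268-90768517 for Ppbp, plus strand.
Pf4: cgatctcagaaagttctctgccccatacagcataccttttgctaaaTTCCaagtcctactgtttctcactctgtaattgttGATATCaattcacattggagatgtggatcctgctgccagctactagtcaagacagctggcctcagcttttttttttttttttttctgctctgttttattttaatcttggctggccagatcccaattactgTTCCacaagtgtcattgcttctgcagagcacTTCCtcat
Ppbp: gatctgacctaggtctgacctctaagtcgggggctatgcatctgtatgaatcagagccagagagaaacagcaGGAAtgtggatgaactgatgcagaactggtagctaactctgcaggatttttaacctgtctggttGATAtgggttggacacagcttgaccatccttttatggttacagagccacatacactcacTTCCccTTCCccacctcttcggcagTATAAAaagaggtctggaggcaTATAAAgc
The Pf4 window held GGAA at 3 places, beginning 204, 39 and 8 bases before the start, and the Ppbp window also at 3, beginning 178, 55 and 49 bases before it. GATA stood at 2 overlapping places before Pf4, beginning 169 and 167 bases upstream, and at 1 place before Ppbp, beginning 114 bases upstream. The windows differed in the TATA box: TATAAA began 30 and 8 bases before the start of Ppbp and was not in the Pf4 window. Of 32851 promoter windows of this length in the table, 93.4% held GGAA, 53.6% GATA and 12.4% TATAAA. The same windows were searched for the longer GAGGAA, found in 23.3% of promoters and at 1 place before Pf4, overlapping its GGAA, and for TGACNNNGC and ACGTG, found in 10.2% and 16.6% of promoters and in neither window.

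The library titled Blood held 12057 barcodes and the library titled Control 9475, with 115066023 and 115272096 UMIs in all. After filtering, 11341 cells of titled Blood and 8823 of titled Control remained, with 6577 and 9245 UMIs in the median cell. The libraries shared 349 barcode sequences, of which 339 were kept in both, and 23.6% of these carried the same cell class in both, against 32.0% from the class sizes alone. Clusters were named from marker lists as "X-like". Macrophage-like cells were 5539 in titled Blood and 5129 in titled Control, in 11 clusters, with 79082527 and 79991081 UMIs. All 8 macrophage markers (among them C1qa, Csf1r and Adgre1) were present in them at a summed 24813 and 26462 CPM, where CPM is UMIs of a gene per 1000000 UMIs of the same cells. In titled Blood most macrophage-like cells were in clusters 0 (21.1%), 3 (17.6%), 4 (14.3%), 7 (13.7%) and 2 (12.3%), and in titled Control in clusters 0 (18.5%), 2 (16.9%), 6 (15.6%), 4 (13.7%) and 10 (10.6%), so sums over the class mix the subsets differently. Platelet or megakaryocyte markers summed to 1.80 and 2.01 CPM in macrophage-like cells, and erythroid markers to 0.544 and 0.288 CPM. Another 5 clusters scored highest for macrophage markers but stayed unnamed (828 and 818 cells), among them cluster 13, which both genes turn on.

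Pf4 RNA was concentrated in macrophage-like cells. It stood at 2898 CPM (2886 to 2910) in macrophage-like cells of titled Blood and at 1686 CPM (1677 to 1695) in those of titled Control. These cells held 88.1% of all Pf4 UMIs of kept cells in titled Blood and 92.7% in titled Control, and with the unnamed macrophage-scored clusters the share was 98.7% and 98.9%. A macrophage-like cell carried a median of 21 Pf4 UMIs in titled Blood and 10 in titled Control, and at most 633 and 528. At least 1 Pf4 UMI was seen in 89.6% of macrophage-like cells of titled Blood and in 82.3% of those of titled Control. When every cell was thinned to 2000 UMIs, leaving 5242 and 4979 cells, the shares were 78.1% and 64.2%. The order of the libraries was thus the same at equal depth.

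Levels outside macrophages were far lower in the larger classes. T cell-like cells were at 53.5 CPM of Pf4 in titled Blood and 42.8 CPM in titled Control, with a UMI in 22.5% and 16.2% of cells at a median depth of 4804 and 5043 UMIs. Conventional DC-like cells, a dendritic type that primes T cells, were at 50.4 and 42.3 CPM. NK cell-like cells were at 79.9 and 32.0 CPM, mesenchymal-like cells, which carry collagen genes, at 161 and 68.3 CPM, and neutrophil-like cells at 149 and 56.3 CPM. Monocyte-like cells, the blood-derived precursors of many tumour macrophages, were at 136 CPM (125 to 147) in titled Blood and 76.6 CPM (67.8 to 86.2) in titled Control. In titled Control 1 monocyte-like cell held 109 of the 273 Pf4 UMIs. In titled Blood 12 cells with at least 10 Pf4 UMIs held 53.8% of the 599. After thinning to 2000 UMIs, 11.5% of monocyte-like cells of titled Blood and 5.90% of those of titled Control had a Pf4 UMI, beside 9.94% and 7.16% of T cell-like cells. By this share a level above that of T cells was not shown in titled Control, and the shares of titled Blood lay close together. Pf4 in monocyte-like cells was far under that of macrophage-like cells in both libraries.

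A few small classes stood higher, with much of the count in single cells. In B cell-like cells Pf4 was at 780 CPM in titled Blood and 745 CPM in titled Control, over 62 and 37 cells, and 1 cell held 102 of the 236 UMIs of titled Blood and 1 held 135 of the 179 of titled Control. In migratory DC-like cells, dendritic cells on their way to lymph nodes, it was at 815 and 78.1 CPM, and 1 cell of titled Blood held 336 of the 466 UMIs. The part that doublets with macrophages have in these values was not tested.

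Within macrophages, Pf4 differed over a wide range between subsets. The highest levels were in cluster 13, led by Retnla, Ednrb, Lyve1 and Cd163, at 9768 CPM (9648 to 9888) in titled Blood and 2953 CPM (2889 to 3019) in titled Control, and in cluster 7, led by Mmp12, Cd36 and Hmox1, at 6658 CPM (6600 to 6716) and 4056 CPM (3994 to 4118). Cluster 13 ranked first in titled Blood and second in titled Control, where cluster 7 ranked first, and the intervals did not overlap in either library. It was left unnamed because Clec10a, a dendritic cell marker here, was among its leading genes, while its markers scored highest for macrophages.

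Cluster 0 followed, led by Ccl8, Folr2 and Gas6 and scoring highest of the macrophage-like clusters on the Ccl8 Folr2 list (1.87, against 3.67 in the unnamed cluster 13), at 3853 CPM (3825 to 3881) in titled Blood and 2599 CPM (2575 to 2624) in titled Control. Nearly all of its cells carried Pf4: 99.7% of its 1166 cells in titled Blood and 99.2% of its 951 cells in titled Control had a Pf4 UMI, with a median of 46 and 32 UMIs per cell. Cluster 3, led by Arg1 and Fn1, came next at 3092 and 2297 CPM. Cluster 9.3, which scored highest of the macrophage-like clusters on the Cxcl9 list, was at 2295 and 1140 CPM. Proliferating cells (cluster 2, led by Nusap1 and Mki67) were at 2128 and 1550 CPM, interferon-response cells (cluster 6, led by Ifit2) at 2026 and 1124 CPM, and cluster 4, led by Cxcl9 and MHC class II genes, at 1339 and 807 CPM. Low levels were found in cluster 10, led by Tmem176b and MHC class II genes, at 725 and 640 CPM, in the Ccl24-led cluster 5.0, at 683 and 441 CPM, and at 486 and 371 CPM in cluster 5.3. Cluster 19, unnamed, led by the osteoclast genes Ctsk and Acp5, was lowest by summed UMIs, at 261 and 143 CPM. Its median cell had only 751 and 1772 UMIs. As a mean over single cells it was not lowest, at 878 and 854 CPM, beside 716 and 579 CPM in cluster 10. In titled Blood the neighbours 6 and 9.2 (1914 CPM), 9.2 and the unnamed 9.4 (1756 CPM), 10 and 5.0, and the unnamed 9.1 (272 CPM) and 19 had overlapping intervals. In titled Control those of 9.3 and 6 overlapped, as did each neighbour among the lowest unnamed clusters 5.1 (258 CPM), 9.4 (185 CPM), 9.1 and 19.

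**Figure D1:**
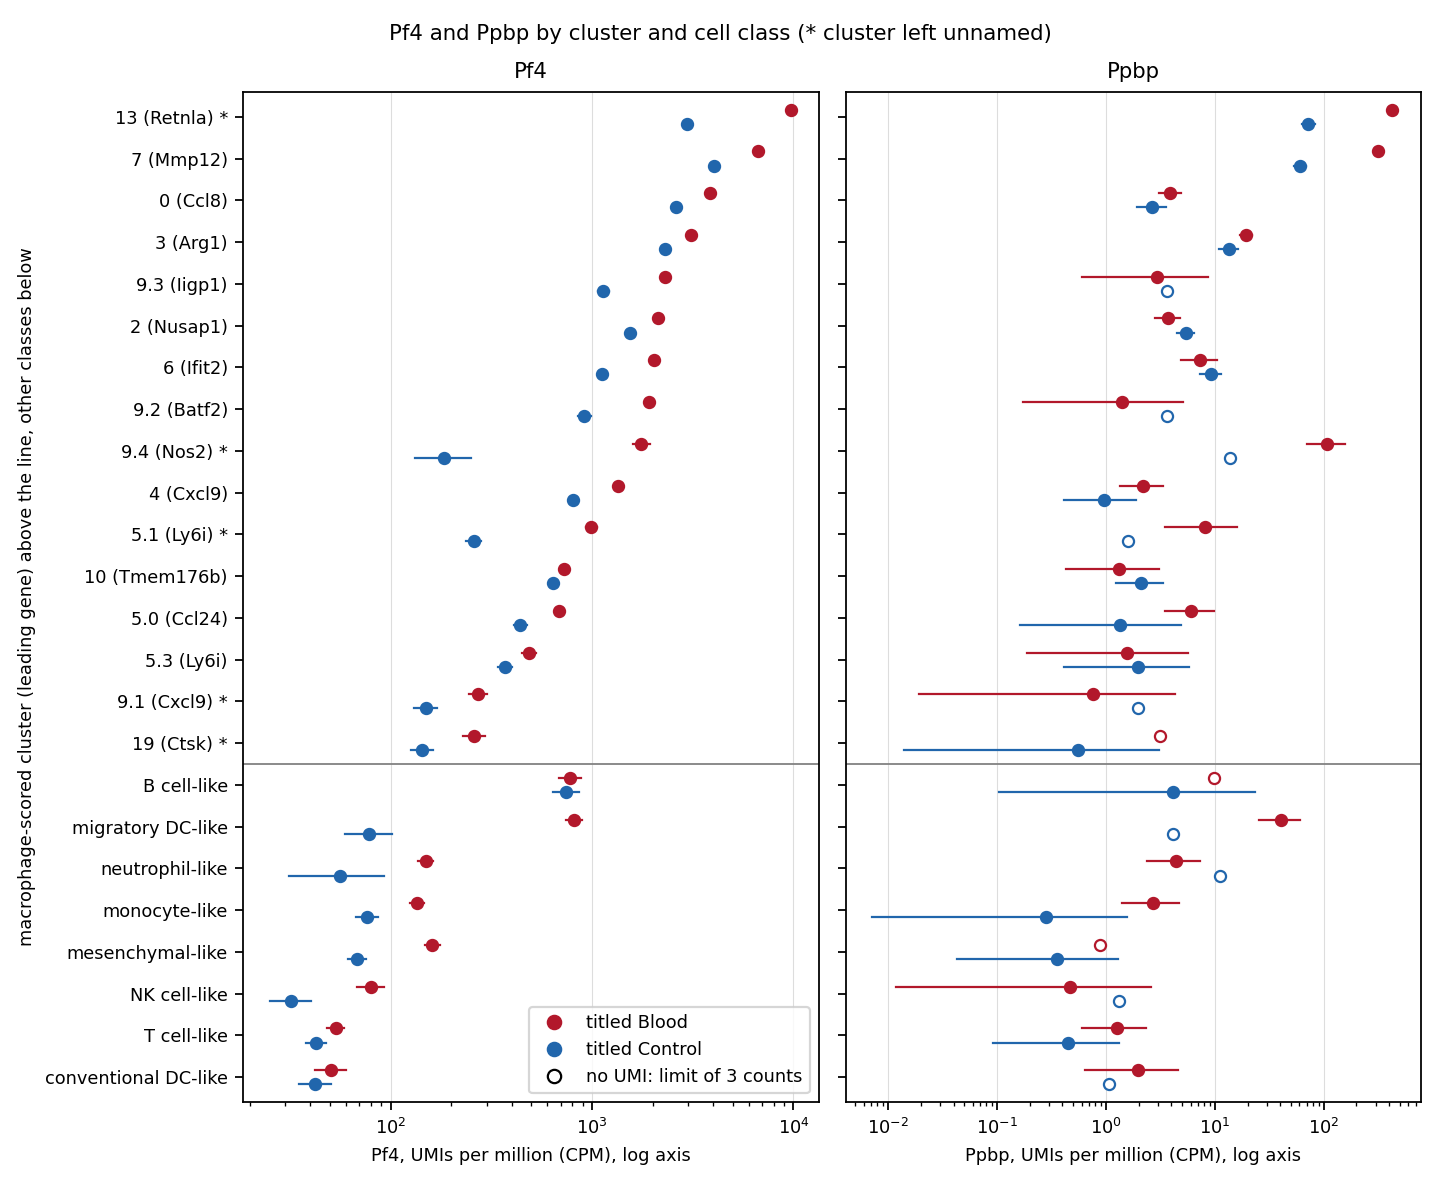
Pf4 (left) and Ppbp (right) in CPM on log axes, for macrophage-scored clusters, named by their leading gene, above the grey line and other cell classes below it. Points are sums over the cells of 1 library (red, titled Blood; blue, titled Control), bars exact 95% counting intervals, open points no UMI, drawn at the limit of 3 counts. Clusters 13 and 7 stand highest for both genes, at 9768 and 6658 CPM of Pf4 in titled Blood, and Ppbp is far lower in the clusters below them.

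All 11 macrophage-like clusters had more Pf4 in titled Blood than in titled Control. Over the class the ratio of titled Blood to titled Control was 1.72 (1.71 to 1.73), a log2 ratio of 0.78 after adding 5 CPM to both. Both genes were at least 1.5-fold higher, where 0.54% of the 7781 genes tested were at least 1.5-fold higher and 0.887% at least 1.5-fold lower. The test set took genes with 10 CPM or more in 1 library or the other and 10 or more counts in all, and Ppbp passed only through the library titled Blood. Within clusters the Pf4 ratios ran from 1.13 (1.08 to 1.18) in cluster 10 to 2.08 (1.92 to 2.26) in cluster 9.2 with a median of 1.55. In cluster 7 the ratio was 1.64 (1.61 to 1.67), in cluster 0 it was 1.48 and in cluster 3 it was 1.35 (1.32 to 1.37). The unnamed cluster 13 had 3.31 (3.23 to 3.39). Among all genes tested within cluster 7, 1.37% were at least 1.5-fold higher and 0.65% at least 1.5-fold lower, and within cluster 13 these shares were 4.14% and 6.37%. The clusters share 1 library per side, so they are not repeats of the comparison.

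Other values moved with the libraries too. Neutrophil-like cells were 1772 in titled Blood and 130 in titled Control, and the 8 neutrophil markers summed to 188 CPM in macrophage-like cells of titled Blood, against 84.1 CPM in those of titled Control. Neutrophil-like cells themselves were at 149 and 56.3 CPM of Pf4, far below macrophage-like cells. T cell markers in macrophage-like cells summed to 16.0 and 16.1 CPM. Pf4 was also higher in titled Blood in T cell-like cells, by a ratio of 1.25 (1.07 to 1.46). In NK cell-like cells it was higher by 2.49 (1.89 to 3.33). T cell-like cells also held macrophage markers, at a summed 554 and 727 CPM, beside 24813 and 26462 CPM in macrophage-like cells. Whether the T cells themselves made this Pf4 was not tested. In titled Blood 1 NK cell-like cell held 53 of the 170 Pf4 UMIs of its class. Pf4 was lower in titled Blood in the unnamed cluster 18, at 171 and 315 CPM. There 1 cell of titled Control held 87 and another 58 of the 252 UMIs. As a mean over single cells the order in cluster 18 turned, at 160 and 134 CPM. The part of these values in the macrophage difference was not tested.

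Ppbp RNA was rarer, and a small number of cells held most of it. In macrophage-like cells it was at 36.2 CPM (34.8 to 37.5) in titled Blood, from 2859 UMIs, and at 7.70 CPM (7.10 to 8.33) in titled Control, from 616 UMIs. The ratio was 4.69 (4.30 to 5.13), a log2 ratio of 1.70, and the median gene of the class was at 0.01. Without cluster 7 the log2 ratio was 0.21, so the difference over the class rested on that cluster. A Ppbp UMI was seen in 6.46% of macrophage-like cells of titled Blood (5.83% to 7.14%, 358 cells) and in 2.94% of those of titled Control (2.50% to 3.44%, 151 cells), and after thinning to 2000 UMIs in 2.92% and 0.844%. T cell-like cells gave a UMI in 0.663% and 0.253% of cells, and 1.27 and 0.451 CPM.

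Clusters 13 and 7 were the main source of Ppbp in both libraries. Cluster 13 was at 423 CPM (398 to 449) in titled Blood and 72.5 CPM (62.7 to 83.4) in titled Control, and the ratio was 5.84 (5.01 to 6.83). Cluster 7 was at 316 CPM (304 to 329) and 60.3 CPM (53.0 to 68.4), and the ratio was 5.25 (4.60 to 6.01). In titled Blood their intervals did not overlap, and in titled Control they did. Single cells weighed on the values of titled Control: 1 cell held 113 of the 196 Ppbp UMIs of cluster 13 and 1 held 89 of the 244 of cluster 7. Without the top cell of each library the ratio was 12.7 (10.1 to 16.1) in cluster 13 and 7.73 (6.57 to 9.16) in cluster 7. Without all cells holding at least 10 Ppbp UMIs the ratio was 11.4 (7.57 to 18.0) in cluster 13 and 2.36 (1.81 to 3.13) in cluster 7, from 40.1 CPM in titled Blood and 17.0 CPM in titled Control. Ppbp in both clusters was higher in titled Blood under each of these settings, but the size of the ratio depended on few cells.

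Other macrophage clusters carried little Ppbp. Cluster 3 was at 19.5 CPM (17.1 to 22.1) in titled Blood and 13.5 CPM (10.9 to 16.5) in titled Control, a ratio of 1.44 (1.14 to 1.85). Cluster 0, ranked 3 for Pf4, was at 3.89 and 2.66 CPM, with a ratio of 1.46 whose interval (0.997 to 2.16) included 1. Interferon-response cells (cluster 6) were at 7.29 and 9.19 CPM, and proliferating cells (cluster 2) at 3.73 and 5.42 CPM. Both of these ratios rested on few cells: without cells holding at least 10 Ppbp UMIs they were 3.11 (1.42 to 6.96) in place of 0.794 in cluster 6, and 1.34 (0.875 to 2.05) in place of 0.688 in cluster 2. Of the 11 macrophage-like clusters the interval lay above 1 in 3 (7, 3 and 5.0) and below 1 in 1 (cluster 2), and in the rest it included 1 or the ratio had no UMI in titled Control. Cluster 5.0 rested on 16 UMIs in titled Blood, 10 of them in 1 cell, and on 2 UMIs of 1 cell in titled Control. The small unnamed cluster 9.4, led by Nos2, had 26 Ppbp UMIs in 27 cells of titled Blood (107 CPM), all of them in 2 cells, and 0 in 18 cells of titled Control, where a count of 0 allows up to 13.9 CPM at a limit of 3 counts.

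**Figure D2:**
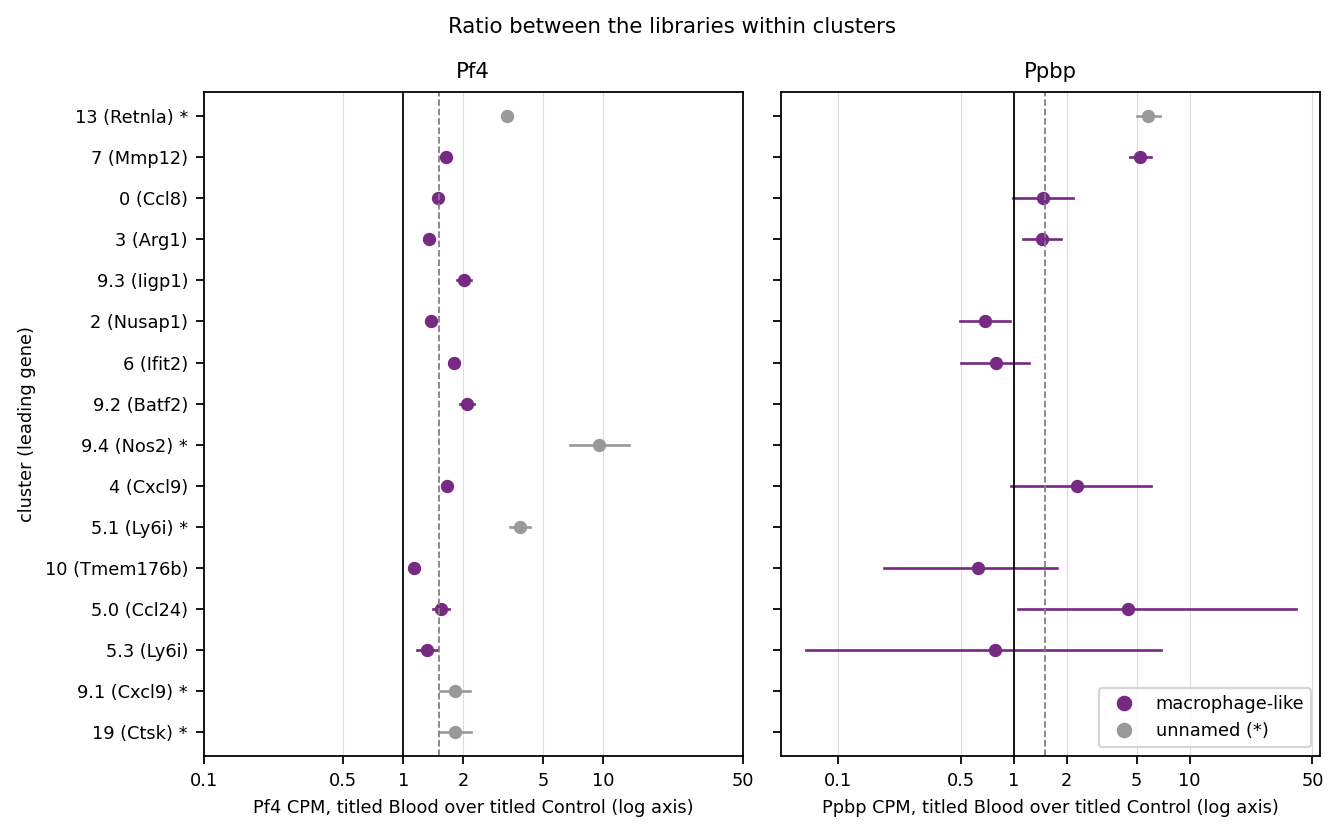
Ratio of titled Blood over titled Control for Pf4 (left) and Ppbp (right) within macrophage-scored clusters, on log axes, with exact 95% counting intervals; the solid line marks 1 and the dashed line 1.5, and clusters with no UMI in a library are not drawn. Pf4 lies right of 1 in all 11 macrophage-like clusters (purple), whereas Ppbp does so with its whole interval in clusters 7, at 5.25, 3, at 1.44, and 5.0, and in the unnamed cluster 13 (grey), at 5.84.

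The distribution over cells showed how the genes differ. In cluster 7, 92.5% of 761 cells of titled Blood and 89.8% of 315 cells of titled Control had a Pf4 UMI, but 21.2% and 10.5% had a Ppbp UMI. At least 10 Ppbp UMIs, a limit chosen after the values were seen, were found in 67 cells of cluster 7 in titled Blood (8.80% of the cluster) and in 5 in titled Control (1.59%). In cluster 13 there were 28 such cells in titled Blood (6.67%) and 4 in titled Control (1.47%), and in cluster 3 there were 7 and 4. Cluster 0 had none. Over all kept cells 108 cells of titled Blood and 17 of titled Control had at least 10 Ppbp UMIs, and they held 78.5% and 66.9% of the Ppbp UMIs of their library. All but 1, a migratory DC-like cell of titled Blood with 19 UMIs, lay in macrophage-scored clusters.

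**Figure D3:**
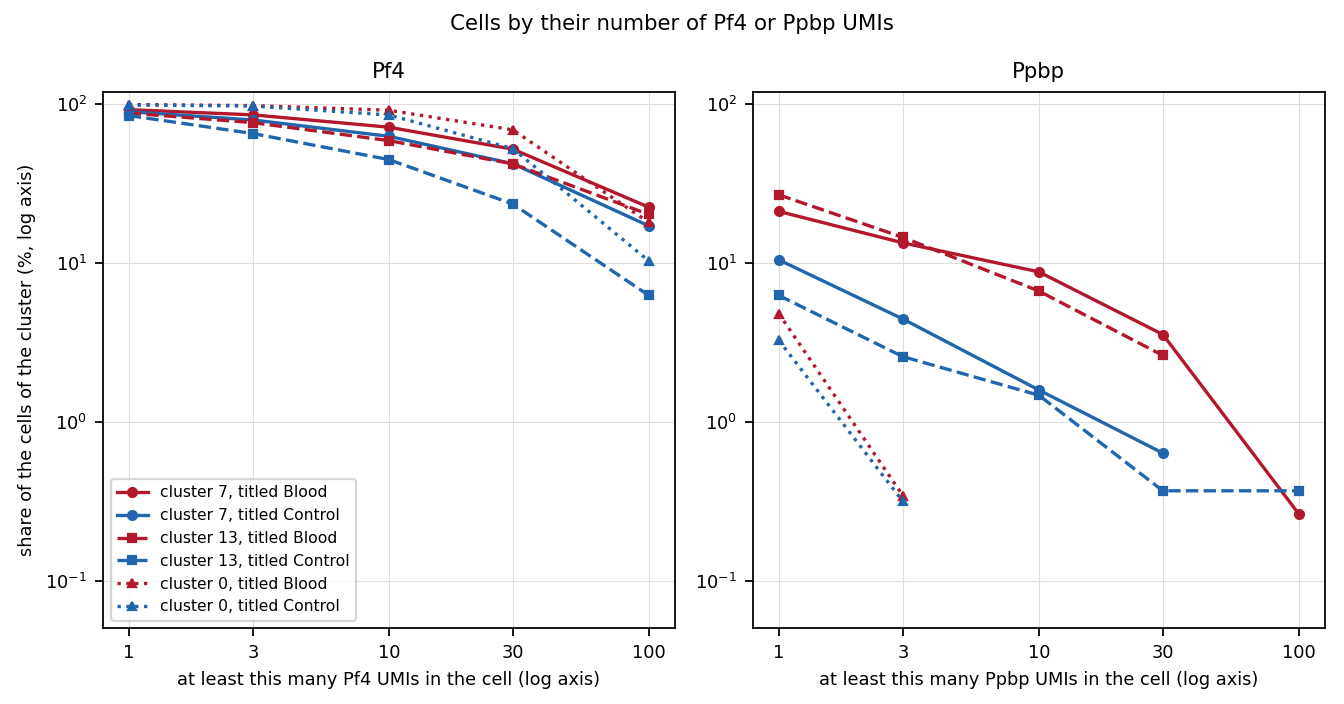
Share of the cells of clusters 7, 13 and 0 with at least 1, 3, 10, 30 or 100 UMIs of Pf4 (left) or Ppbp (right), both axes logarithmic, in titled Blood (red) and titled Control (blue); points at 0 are not drawn. For Pf4 most cells of all 3 clusters carry UMIs, while for Ppbp 8.80% of cluster 7 cells in titled Blood and 1.59% in titled Control reach 10 UMIs and no cell of cluster 0 does.

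Cells with Ppbp UMIs also had more Pf4. Among macrophage-like cells of titled Blood, Pf4 was at 7357 CPM (7284 to 7431) in cells with at least 1 Ppbp UMI, against 2583 CPM (2571 to 2595) in cells without one. In titled Control it was at 4015 CPM (3945 to 4087), against 1593 CPM (1584 to 1602). Pf4 in cells without Ppbp was thus also higher in titled Blood. In cells with at least 10 Ppbp UMIs, Pf4 reached 16065 CPM in cluster 7 of titled Blood (67 cells) and 13163 CPM in titled Control (5 cells), and 24126 and 10605 CPM in cluster 13. Cluster 3 of titled Control was the exception, with Pf4 at 2533 CPM in its 4 cells with at least 10 Ppbp UMIs, 4002 CPM in its cells with at least 1 and 2190 CPM in its cells without. Each of the 108 and 17 cells had Pf4, at least 4 UMIs in titled Blood and 18 in titled Control, with a median of 147.5 and 131. Their median depth was 8504.5 UMIs in titled Blood and 15283 UMIs in titled Control.

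**Figure D4:**
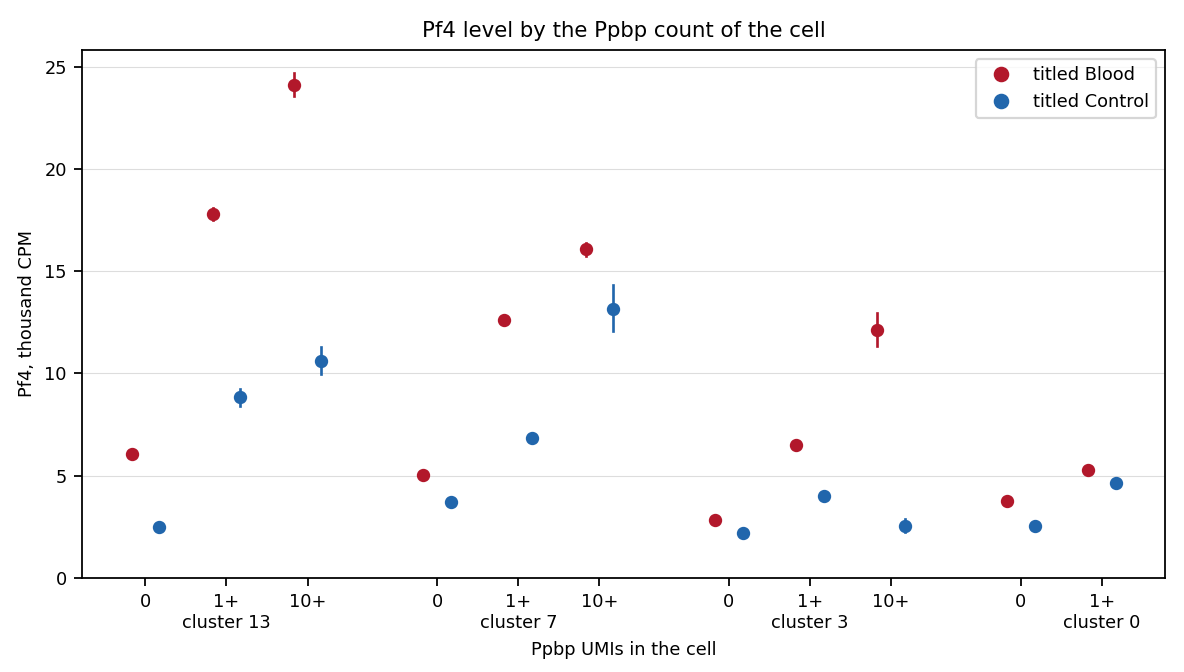
Pf4 (axis in units of 1000 CPM) in cells with 0, at least 1 or at least 10 Ppbp UMIs, for clusters 13, 7, 3 and 0, in titled Blood (red) and titled Control (blue); bars are exact 95% counting intervals. Pf4 is higher in the cells with more Ppbp, up to 24126 CPM in cluster 13 of titled Blood, except in cluster 3 of titled Control; cluster 0 has no cell with 10 Ppbp UMIs.

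Platelet and megakaryocyte markers were close to absent. Of 10 defining markers, 4 had no UMI in any barcode of titled Blood, among them Gp9 and Tubb1, and 3 none in titled Control, among them Gp1ba and Tubb1, and all 10 together had 217 and 266 UMIs, or 1.89 and 2.31 CPM. Tubb1, the tubulin of the platelet rim, and the von Willebrand factor receptor chains Gp9 and Gp1ba thus had at most 2 UMIs each in a library. In the cells with at least 10 Ppbp UMIs these 10 markers had 3 UMIs in titled Blood (2 of Clec1b, 1 of Treml1) and 0 in titled Control, or 2.70 and 0 CPM. Gata1, the megakaryocyte and erythroid factor, had no UMI in macrophage-like cells of either library. Fli1 and Runx1, which act in megakaryocytes and in other blood cells, were at 59.8 and 112 CPM in titled Blood and at 59.8 and 97.8 CPM in titled Control. Of the wider platelet list Thbs1, thrombospondin 1, which macrophages also make, was high: 2283 CPM in the Ppbp-rich cells of titled Blood and 993 CPM in those of titled Control, against 329 and 291 CPM in macrophage-like cells without Ppbp. These groups differ in their clusters, so the contrast is partly one between clusters. Within cluster 7 of titled Blood Thbs1 was at 3173 CPM in Ppbp-rich cells and at 1327 CPM in cells without Ppbp.

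The Ppbp-rich cells of cluster 7 differed from its Ppbp-negative cells in further genes, given here as a description of 1 library at a time. In titled Blood Cxcl5, a neutrophil attractant, was at 153 CPM (124 to 187) in the 67 Ppbp-rich cells and at 8.93 CPM in the 600 without Ppbp. Cxcl3, of the same kind, was at 2247 and 1084 CPM, and Ccl8, which attracts monocytes and other cells, at 2016 and 565 CPM. F13a1, the A chain of coagulation factor XIII, was at 878 and 314 CPM, Cd163, the receptor for haptoglobin and haemoglobin, at 39.8 and 2.53 CPM, and the macrophage regulator Maf at 985 and 466 CPM. Mmp12, the leading gene of the cluster, was lower at 1945 and 2687 CPM, and Spi1 at 298 and 364 CPM. The median depths were close, at 8232 and 7558.5 UMIs in titled Blood. In titled Control the Ppbp-rich cells of the cluster held 40188 UMIs in all, so low values in them rest on few counts. The 5 Ppbp-rich cells of titled Control shared the higher Cxcl3 (6395 and 493 CPM), Thbs1 (4778 and 1013 CPM) and F13a1 (1169.5 and 271 CPM), but not that of Ccl8 (74.6 and 246 CPM), and had no UMI of Cxcl5.

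In cluster 13 the Ppbp-rich cells had more Hmox1 and Gpnmb, which are among the leading genes of cluster 7, and more Arg1, which leads cluster 3. Hmox1, the haem-degrading enzyme, was at 4298 CPM in the 28 Ppbp-rich cells of titled Blood and 1728 CPM in the 307 without Ppbp, and at 3352 and 937 CPM in titled Control. Arg1, arginase, was at 3048 and 931 CPM in titled Blood and at 8145 and 550 CPM in titled Control, from 4 and 255 cells. Gpnmb was at 306 and 66.6 CPM in titled Blood and at 43.0 and 2.79 CPM in titled Control. Mmp12, the first gene of cluster 7, was lower, at 19.9 and 160.1 CPM in titled Blood. In titled Control it was at 10.7 and 77.3 CPM. The 4 Ppbp-rich cells of titled Control held 93068 UMIs in all, so their Mmp12 and Gpnmb values rest on few counts. Cxcl5 was at 206 CPM (158 to 264) and 17.4 CPM in titled Blood and had no UMI in the 4 Ppbp-rich cells of titled Control. Retnla, which leads the cluster, was at 26.6 and 668 CPM in titled Blood and 258 and 3923 CPM in titled Control. The Ppbp-rich cells of titled Blood were deeper, with a median of 9468 UMIs against 4434, and so were those of titled Control, with 21126.5 against 7739.

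Of the 7 CXC chemokine genes of the chromosome 5 cluster, 5 were tested in macrophage-like cells, 3 were at least 1.5-fold higher in titled Blood (Pf4, Ppbp and Cxcl3) and 0 lower, beside 0.54% and 0.887% of all genes. Pf4 and Ppbp were selected on their levels, and the median log2 ratio of the 5, 0.78, is that of Pf4 itself, so the list says little beyond its other members. Cxcl3, which lies on the other side of Pf4 from Ppbp, was at 166 CPM in titled Blood and 41.7 CPM in titled Control, a ratio of 3.99 (3.84 to 4.15). In cluster 7 it was at 1215 and 628 CPM. Cxcl5, the neighbour of Ppbp, was too low to be tested at 2.91 and 0.313 CPM, but was found at 44.4 and 9.25 CPM in cluster 13 and 27.0 and 4.45 CPM in cluster 7, the clusters with most Ppbp. Cxcl1 and Cxcl2, at the far end of the cluster, were less than 1.5-fold apart, at 13.1 and 9.36 CPM and at 1156 and 932 CPM, and Cxcl1 was tested only through titled Blood. Cxcl15 had no UMI in macrophage-like cells. Outside macrophages the neighbours had other main sources: Cxcl2 stood at 28887 and 21513 CPM and Cxcl3 at 7133 and 1812 CPM in neutrophil-like cells, and Cxcl1 at 104 and 123 CPM in mesenchymal-like cells, where Ppbp had 0 and 2 UMIs.

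**Figure D5:**
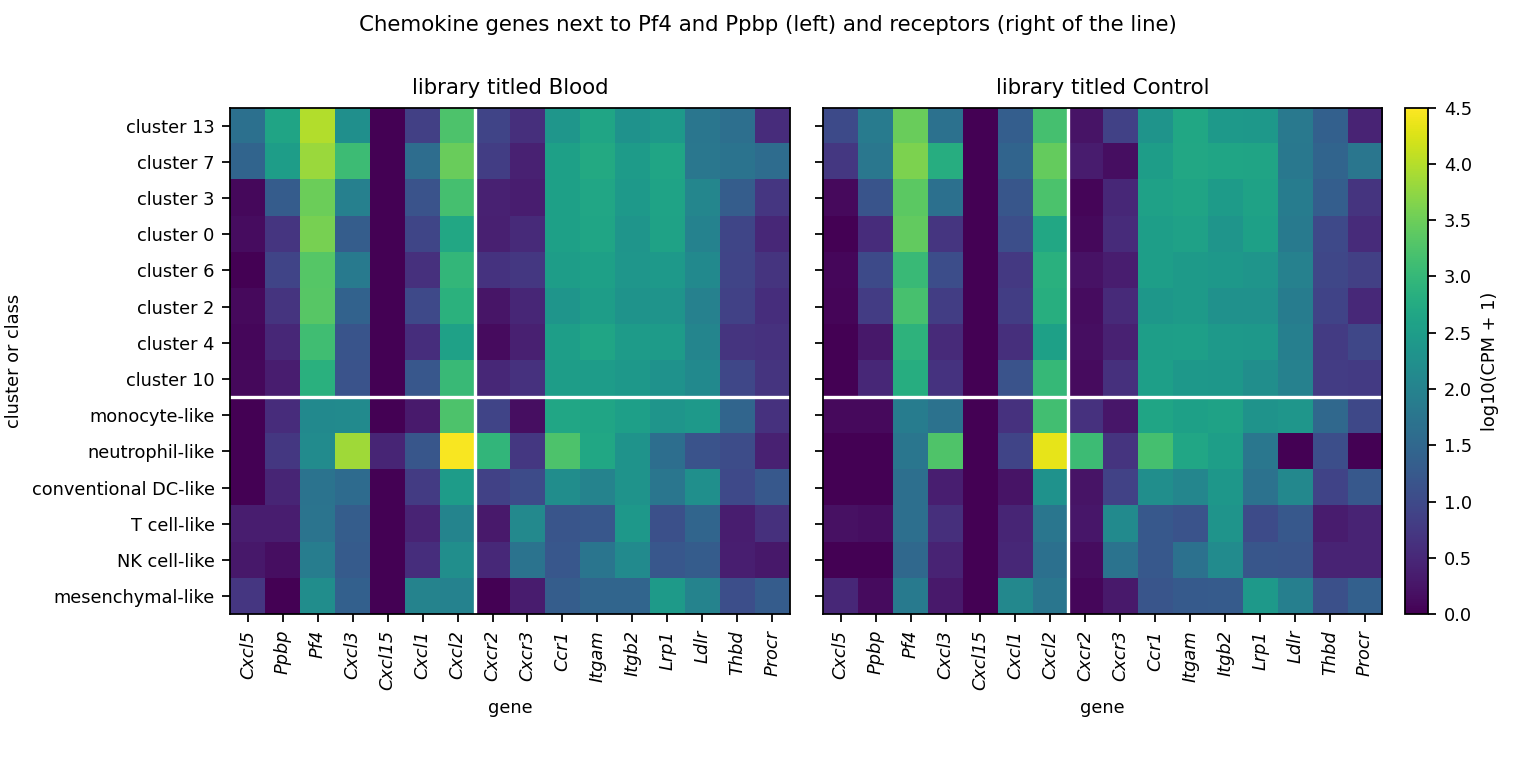
Levels, as log10(CPM + 1), of the chemokine genes around Pf4 and Ppbp in chromosome order and of reported receptors (right of the white line) in macrophage-scored clusters (above the line) and other classes, in titled Blood (left) and titled Control (right). Read down a column: Ppbp and Cxcl5 are brightest in clusters 13 and 7, Cxcl2 and Cxcr2 in neutrophil-like cells, and Cxcr3 in T cell-like cells at 128 and 144 CPM.

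Reported receptors and binding partners were spread over several cell types. Of 10 on the list 6 were tested in macrophage-like cells and 0 were called higher and 0 lower, at a median log2 ratio of 0.30, where 0.54% and 0.887% of all genes were called, so a count of 0 among 6 genes says nothing particular about them. In cluster 7, 1 of the 7 tested was called higher (Thbd) and 1 lower, where 1.37% and 0.65% of all genes were. In cluster 13, 1 of the 6 tested was called higher and 0 lower, where 4.14% and 6.37% of all genes were. Some members also passed in other clusters and classes, whose shares over all genes are not given here. Cxcr2, the receptor of trimmed PPBP, was at 917 CPM in neutrophil-like cells of titled Blood and 1216 CPM in those of titled Control, and at 2.10 and 0.650 CPM in macrophage-like cells. Cxcr3, a reported receptor of PF4, was at 128 and 144 CPM in T cell-like cells and at 51.7 and 50.5 CPM in NK cell-like cells. Ccr1, reported as a PF4 receptor on human monocytes, was at 333 and 318 CPM in macrophage-like and 1734 and 1486 CPM in neutrophil-like cells. The integrin chain Itgam was at 424 and 334 CPM in macrophage-like cells, and Lrp1, an endocytic receptor that binds PF4, at 329 and 270 CPM there and 282 and 268 CPM in mesenchymal-like cells. Thrombomodulin (Thbd), an anticoagulant receptor that PF4 binds, was at 49.7 and 27.7 CPM in cluster 7 and 42.1 and 22.6 CPM in cluster 13, against 13.9 and 10.1 CPM over the class.

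Proteoglycans carry sugar chains that hold these chemokines. In macrophage-like cells 5 of the 8 on the list were tested, 0 were called higher and 0 lower, with a median log2 ratio of 0.29. Of all genes 0.54% were called higher and 0.887% lower there, so a count of 0 among 5 genes says nothing particular about them. In cluster 7 alone 1 of the 6 tested was called higher, where 1.37% of all genes were. Srgn, the serglycin core of secretory granules, was at 1420 CPM in macrophage-like cells of titled Blood and 1162 CPM in those of titled Control, and Sdc4, a surface syndecan, at 520 and 371 CPM. In macrophage-like cells none of the 5 proteases on the list that trim or degrade the pair reached the level for testing: Ctsg, the cathepsin G that trims PPBP, had 2 and 1 UMIs and Elane none.

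Among other chemokines of macrophages the direction was mixed. All 13 on the list were tested, 2 were at least 1.5-fold higher in titled Blood (Ccl8, at 926 and 509 CPM, and Ccl24, at 177 and 71.6 CPM) and 1 lower (Ccl4, at 203 and 314 CPM), beside 0.54% and 0.887% of all genes, with a median log2 ratio of -0.15. Of 8 macrophage transcription factors 7 were tested and 0 passed in either direction; Spi1 was at 455 and 509 CPM and Maf at 437 and 420 CPM. Of 11 genes of tissue-resident type macrophages 8 were tested, 0 were higher and 1 was lower (C4b, at 4.73 and 10.3 CPM), where 0.887% of all genes were lower, with a median of 0.02. C4b was tested only through titled Control, where it was the higher, so its call says little. Folr2 was at 106 and 112 CPM and Stab1 at 504 and 474 CPM.

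The genes most like Pf4 over the 11 macrophage-like clusters were found by Pearson's r of log2(CPM + 5), taken in each library and ranked by the lower value among 6468 genes. They were Slc6a8, a creatine transporter (r of 0.95 in titled Blood and 0.96 in titled Control), the lysosomal proteases Ctsd (0.92 and 0.93) and Ctsb (0.94 and 0.91), the proton pump subunit Atp6v1a (0.92 and 0.89), Crtap, Slc27a1, Sypl and the receptor Cd93. Ctsb was at 3119 and 3139 CPM in cluster 7 and at 970 and 1312 CPM in cluster 10. The genes most like Ppbp were Flrt2 (0.92 and 0.92), the fatty acid and lipoprotein receptor Cd36 (0.93 and 0.91), Rnf128, the haem transporter Slc48a1 (0.94 and 0.90), Ptgr1, Hmox1 (0.96 and 0.89) and the ferritin light chain Ftl1 with its near-identical copy Ftl1-ps1, which can share reads. Hmox1 was at 2586 and 4220 CPM in cluster 7, lower in titled Blood while Ppbp was higher there. The r of Pf4 with Ppbp was 0.65 and 0.70 over these clusters and 0.72 and 0.97 over 9 cell classes. Over those classes r with Pf4 was 0.51 and 0.42 (Slc6a8), 0.23 and 0.21 (Ctsd) and 0.72 and 0.73 (Ctsb). With Ppbp it was 0.04 and -0.02 (Flrt2), 0.61 and 0.79 (Cd36) and 0.38 and 0.13 (Rnf128). All points of a library share 1 suspension and depth. Among the macrophage-like clusters Ppbp was at 316 and 60.3 CPM in cluster 7 and at no more than 19.5 and 13.5 CPM in any other.

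Subsets can also be cut by markers in place of clusters. Taking for each subset the 10% of macrophage-like cells with the highest summed CPM of its marker list, Pf4 was at 7157 CPM in titled Blood and 4423 CPM in titled Control in Hmox1-high Arg1 Mmp12 cells, at 4990 and 3022 CPM in Ccl8 Folr2 cells, at 4844 and 3287 CPM in lipid-associated cells, at 2014 and 1062 CPM in interferon-response cells and at 1889 and 897 CPM in Cxcl9 cells. Ppbp was at 319 and 74.1 CPM in Hmox1-high Arg1 Mmp12 cells and at 82.1 and 5.32 CPM in Ccl8 Folr2 cells, beside 3.89 and 2.66 CPM in cluster 0 and 423 and 72.5 CPM in cluster 13, whose score on that list is higher but whose cells are outside the cut. In the proliferating cut Ppbp was at 3.64 and 4.12 CPM and in the osteoclast-like cut at 11.8 and 12.5 CPM, lower in titled Blood in both. In the remaining cuts it was higher in titled Blood. In the cells cut for Ccr2 and other monocyte-derived genes, Ppbp was at 172 and 2.09 CPM and Pf4 at 1900 and 458 CPM. Cluster 6, the macrophage-like cluster scoring highest on that list, had Ppbp at 7.29 and 9.19 CPM. At Leiden resolution 2 the cluster scoring highest on it had 1.79 and 0 CPM. The high Ppbp of titled Blood on this list was thus seen in the cut and not in the cluster taken at each resolution. Clusters 5.1, 5.0, 13 and 9.4, scoring 1.82, 1.18, 1.16 and 1.01 on it, did have more Ppbp in titled Blood. They were at 8.08 and 0, 6.08 and 1.36, 423 and 72.5, and 107 and 0 CPM. These cuts are ranges and not types, with from 146 to 487 cells within 10% of the cut.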

How the data were processed

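Raw UMI counts per gene and barcode were deposited by the authors as filtered matrices, from 10x single cell 3' v3 libraries. The submitters' processing notes name Cell Ranger 3.1.0 and the mm10 build. Annotation release, cell calling and number of animals were not given in the sources used here. Per the labels, minced tumour was treated with collagenase B plus DNase I, filtered, and freed of erythrocytes by lysis. Libraries were grouped by title.

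Barcodes needed 300 genes, 500 UMIs and no more than 20% mitochondrial UMIs. Scrublet, run in scanpy, marked 276 barcodes of titled Blood (2.38%) and 162 of titled Control (1.80%) as doublets, under the 9.29% and 7.19% expected from loading, and these were left out. Counts were log-normalized and clustered in scanpy 1.11.5 (2000 variable genes without Pf4 and Ppbp, 30 components, 15 neighbours, Leiden resolution 1). Clusters were named by marker score (at least 0.25, ahead by 0.1, with 3 markers detected), and the score limits, like the limit of 10 Ppbp UMIs, were set after values were seen. Levels are summed UMIs per 1000000 UMIs with exact Poisson intervals, and ratios have conditional binomial intervals (scipy 1.17.1). Shares have Clopper-Pearson intervals. PCR and dissociation add error that these do not cover. Log2 ratios add 5 CPM. Barcodes below the filters entered no comparison.

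Named genes were Pf4, Ppbp, the members of 9 gene lists and the 8 genes most like each in pattern. The members and lists were chosen with earlier results of these data known. The steps were tested on simulated data. Other cell filters, clusterings, scalings and pseudocounts were tried. Some list members are not reported here.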

Additional observations from a re-analysis of the deposited data

Results flagged for a closer look

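Barcodes outside the comparisons held Pf4 too. In the 440 barcodes of titled Blood that failed the cell filters Pf4 was at 391 CPM, above the 259 CPM of the 490 such barcodes of titled Control, and Ppbp had 0 and 2 UMIs. In the called doublets Pf4 was at 2114 CPM in titled Blood and 868 CPM in titled Control, and Ppbp was at 14.6 CPM in titled Blood, from 58 UMIs of which 1 barcode held 35, and 3.27 CPM in titled Control.

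In proliferating cells (cluster 2) the Ppbp ratio of titled Blood to titled Control was 0.688, below 1, while over the macrophage-like class it was 4.69. This difference between clusters was not tested. In titled Control 3 cells of that cluster had at least 10 Ppbp UMIs, against 1 in titled Blood.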

How the results depend on the processing

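No paired analysis was possible because each group has 1 library and no result comes from a test. Over 16 alternative settings the log2 ratio stayed above 0 for both genes, between 0.66 and 1.03 for Pf4 and between 0.21 and 2.41 for Ppbp. The Pf4 log2 ratio, 0.78 as reported, was 0.80 with at most 10% mitochondrial UMIs and 0.69 with at least 1000 UMIs. It was 0.76 at Leiden resolution 2, 0.89 with each library clustered on its own and 0.74 with both genes allowed among the clustering genes. It was 1.03 as a mean of CPM over single cells, 0.66 with clusters at equal weight and 1.03 with cells thinned to 2000 UMIs. The Ppbp log2 ratio, 1.70 as reported, was 0.82 with at least 1000 UMIs and 0.69 with each library clustered on its own. It was 1.03 with both genes among the clustering genes, 2.41 as a mean over cells, 1.47 at equal weight and 2.28 with thinned cells. A pseudocount of 1 CPM gave 2.09 and none gave 2.23. In the first 3 of these Ppbp settings the class held 41.9%, 53.2% and 61.0% of the cluster 7 cells of titled Blood, and from 50.6% to nearly all of those of titled Control. For the other settings the cause was not tested.

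Alternatives chosen after seeing the data gave Pf4 log2 ratios of 0.88 with the unnamed macrophage-scored clusters added. They gave 0.79 without barcodes found in both libraries, 0.68 without cluster 7 and 0.79 without the 10 cells of each library richest in Pf4. For Ppbp the log2 ratios were 1.87 with the unnamed clusters, 0.21 without cluster 7 and 1.90 without the 10 richest cells. The CPM ratio of Ppbp, without log2, also turned under settings chosen after seeing the data. It was 1.34 in cluster 2 without cells holding at least 10 Ppbp UMIs. In cluster 6 it was 3.11 both without those cells and without the richest cell of each library. The number of genes at least 1.5-fold higher was 42, 50 with no filter on low values, and 9 at a fold of 2. Among values for single clusters, classes and lists, 109 moved beyond their counting interval under an alternative and 14 did not.

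Counting intervals say nothing of the spread between animals, and with 1 library per group that spread is not measured. Contradictory labels leave the treatment of each library undetermined. Cell classes were rebuilt here, so shares depend on the names given.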
